A study of Mus musculus with 39 samples.

Results

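Clones yfp_6556c4 and yfp_6556c3 are mouse pancreatic tumour cell clones whose titles carry the same line number, and they were read as sister clones of a single parent line. The labels class yfp_6556c4 as T cell high and yfp_6556c3 as T cell low, and each clone had 2 libraries, numbered 1 and 2, so the pair comprised 4 of the 39 libraries of the series. The libraries were picked out by these titles, and the pair was chosen with earlier results of these data known. Cells of both clones were grown as subcutaneous tumours in untreated C57BL/6 mice, and 3 weeks after implantation the tumour cells, titled yfp, were sorted. Total RNA was sequenced on an Illumina NextSeq 550. The question of the design was which genes differ in tumour cells between tumours of the T cell low and the T cell high class, and sister clones put that question within a single line. The labels do not give the genotype of the line, or the age or number of the mice, and do not say whether a clone's 2 libraries were from different animals. P-values therefore measure only how far libraries spread, which may be technical, and each class is represented here by 1 clone.

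Pancreatic ductal tumour cells are epithelial cells that can shift between epithelial and mesenchymal states. Epithelial cells are joined by adhesion molecules such as EpCAM and E-cadherin and sealed by tight junctions built from claudins, and these genes are repressed by transcription factors such as Zeb1 and Snail that bind E-box motifs. Tumour cells also release chemokines and growth factors that draw myeloid cells or lymphocytes into the tumour, and T cell high and low tumours differ by definition in the T cells they hold. Sorted tumour cells can carry some RNA of other cells, so marker genes of those cells were measured beside the tumour genes. In such bulk RNA, fewer cells of a type and less RNA per cell cannot be told apart.

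The genes that stood higher in the high clone in both pairs of libraries included Epcam and the claudin genes Cldn3, Cldn4 and Cldn7, and their promoters are shown because these junction genes were higher together. The sequences are the 250 bases before the annotated start, 5′ to 3′, from RefSeq on GRCm38.p6, and all 4 genes looked up had an entry. Capitals mark the E-box letters CAGGTG, or CACCTG on the other strand, which overlap no other motif searched.
Epcam, chr17:87635729-87635978, plus strand: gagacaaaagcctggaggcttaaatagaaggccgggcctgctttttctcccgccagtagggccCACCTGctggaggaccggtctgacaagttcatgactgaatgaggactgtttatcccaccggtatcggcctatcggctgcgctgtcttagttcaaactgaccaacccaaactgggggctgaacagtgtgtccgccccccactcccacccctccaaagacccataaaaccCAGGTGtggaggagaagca
Cldn4, chr5:134946935-134947184, minus strand: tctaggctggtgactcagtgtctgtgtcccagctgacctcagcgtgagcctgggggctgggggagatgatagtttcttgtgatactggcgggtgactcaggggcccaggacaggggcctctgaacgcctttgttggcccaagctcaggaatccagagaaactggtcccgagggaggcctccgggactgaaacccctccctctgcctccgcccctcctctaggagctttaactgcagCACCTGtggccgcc
Cldn3, chr5:134985964-134986213, plus strand: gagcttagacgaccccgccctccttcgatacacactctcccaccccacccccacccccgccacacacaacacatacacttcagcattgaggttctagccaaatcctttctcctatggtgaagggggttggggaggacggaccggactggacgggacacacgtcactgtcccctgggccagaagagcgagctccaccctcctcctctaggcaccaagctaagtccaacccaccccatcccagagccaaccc
Cldn7, chr11:69964529-69964778, plus strand: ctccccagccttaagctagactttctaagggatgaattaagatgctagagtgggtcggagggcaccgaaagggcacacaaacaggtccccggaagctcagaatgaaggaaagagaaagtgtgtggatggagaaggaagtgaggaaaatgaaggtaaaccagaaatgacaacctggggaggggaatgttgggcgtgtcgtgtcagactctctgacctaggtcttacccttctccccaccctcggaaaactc
The Epcam promoter held 2 matches and the Cldn4 promoter held 1. The windows of Cldn3 and Cldn7 held 0 matches. Of 32851 promoters of the same length, 17.2% held at least 1 match and 2.06% held more than 1. A match is a description of the letters and not a binding site.

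The number 1 and number 2 libraries of each clone were of different kinds, and this bears on every comparison below. Levels are in CPM, which scales counts to library size. Myh6, Myh7, Myl2 and Mb, all heart muscle genes, together reached 4747 CPM in yfp_6556c4 number 1 and 568.3 CPM in yfp_6556c3 number 1, an 8.35-fold ratio. Their sum was 0.0321 CPM and 0.0315 CPM in the number 2 libraries of yfp_6556c4 and yfp_6556c3. The summed level of 6 liver genes was 14504 CPM in yfp_6556c4 number 1 and 1772 CPM in yfp_6556c3 number 1, and at most 0.315 CPM in the number 2 libraries. The log2 ratio between the number 1 libraries was thus 3.06 for heart and 3.03 for liver transcripts. In the whole series, 19 of 39 libraries had a heart sum of 151.9 CPM or more and the others had at most 0.235 CPM. Totals were 19774638 and 31191104 counts for yfp_6556c4 numbers 1 and 2, and 42820052 and 31727738 counts for yfp_6556c3 numbers 1 and 2.

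**Figure D1:**
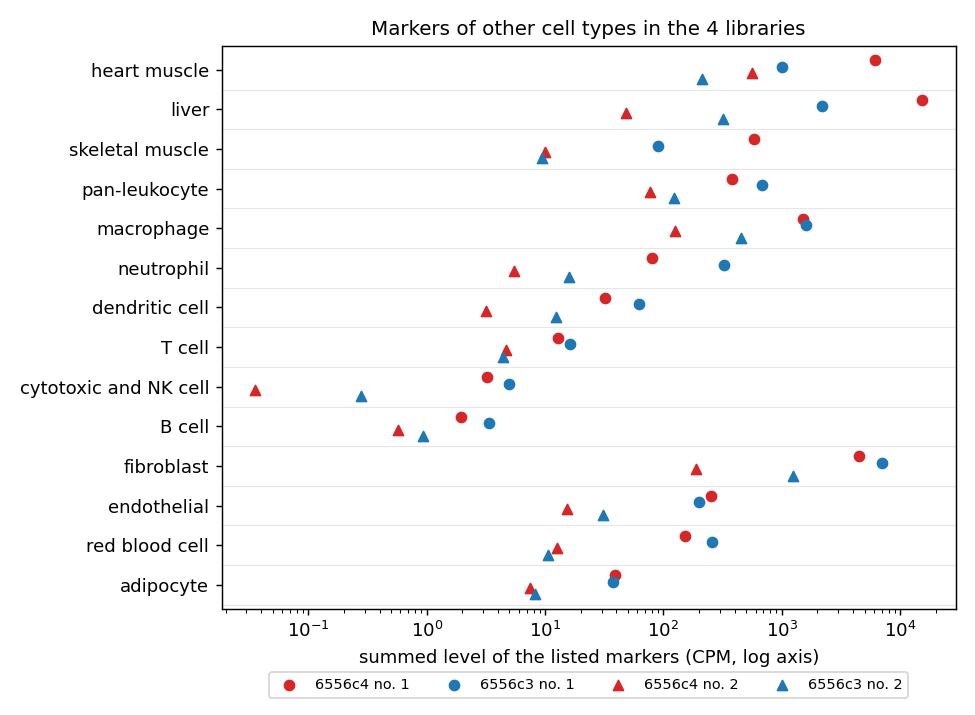
Summed level of the marker genes of each cell type (x axis, CPM, log scale) in the 4 libraries, with circles for number 1, triangles for number 2, red for yfp_6556c4 and blue for yfp_6556c3. Every number 1 library stands above both number 2 libraries in each list, and the fibroblast sum is 189.8 CPM in yfp_6556c4 number 2 against 1248 CPM in yfp_6556c3 number 2.

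Markers of cells other than tumour cells were unequal between the sister clones as well. In the number 2 libraries the sum of 8 fibroblast markers was 189.8 CPM in yfp_6556c4 and 1248 CPM in yfp_6556c3, and the sum of 9 macrophage markers was 126 CPM and 451.3 CPM. Defining genes of both types were above 0 in both libraries, with Col1a1, which encodes a collagen I chain, at 78.2 CPM and 491.8 CPM, and Csf1r, the macrophage growth factor receptor gene, at 7.77 CPM and 37.2 CPM. The sum of 8 pan-leukocyte markers was 77.1 CPM in yfp_6556c4 and 123.9 CPM in yfp_6556c3. Markers of T cells were low in both, with sums of 4.64 CPM and 4.42 CPM over 11 genes, of which 3 were at 0 in yfp_6556c4 and 0 in yfp_6556c3. The list of 11 heart markers summed to 557.3 CPM and 212.7 CPM in the number 2 libraries although the 4 heart genes above were near 0, and nearly all of it was Tnnt2, a cardiac troponin gene, at 554.9 CPM and 211.1 CPM. In the number 1 libraries the fibroblast sum was 4498 CPM in yfp_6556c4 and 6979 CPM in yfp_6556c3, and the neutrophil sum was 80.7 CPM and 322 CPM.

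The libraries were also compared with every other library of the series, as Pearson correlation of log2 CPM over 11635 genes. This is a correlation across genes, which are not independent replicates. yfp_6556c4 number 1 was closest to number 1 of the high clone yfp_6499c4 from another line, at r = 0.9953, above the highest r of 0.9837 between heart-free libraries of a single clone, and its r with number 2 of its own clone was 0.6256, rank 36 of 38. yfp_6556c3 number 1 was closest to yfp_6694c2 number 1, at 0.9301, and correlated at 0.8614 with its own clone. yfp_6556c4 number 2 was closest to number 1 of yfp_7062c3, a clone with no class, at 0.9767, and then to its sister yfp_6556c3 number 2, at 0.9572. yfp_6556c3 number 2 was closest to that same sister library. The r between the sisters lay among the r of 0.9445 to 0.9837 for 4 pairs of heart-free libraries of a single clone, while 167 pairs from different clones gave 0.8092 to 0.9717. The number 2 libraries of the sister clones were thus close to each other, and each number 1 library was closer to libraries of other clones than to number 2 of its own. Whether the number 1 libraries held RNA of the labelled clones alone was not tested, so each number 1 value, and each order shared by both pairs, is that of the libraries as labelled.

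Cdkn2a, the tumour suppressor gene for p16 and p19, is often deleted in pancreatic tumours and separated the libraries in the same way. Its level was 171.6 CPM in yfp_6556c4 number 1, 19.9 CPM in yfp_6556c3 number 1, 0.214 CPM in yfp_6556c4 number 2 and 0.0935 CPM in yfp_6556c3 number 2. Both number 2 libraries of the line were therefore near 0, whereas the 5 other high clones in libraries without heart transcripts held 215.9 to 775.1 CPM. Of the 7 other low clones in such libraries, yfp_6694c2 was also near 0, at 0.0304 CPM, and the others held 283.7 to 471.6 CPM. The difference between the number 1 libraries was 3.11 on the log2 scale, close to the 3.06 of the heart genes. Results are given for each pair of libraries apart, and the number 2 pair is the comparison without these number 1 libraries.

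Across all 4 libraries no gene passed an adjusted p of 0.05 in edgeR's quasi-likelihood test, and the share called was 0% of 16450 genes. At an unadjusted p under 0.05, 177 genes were higher and 70 lower in yfp_6556c4. DESeq2 on the same counts called 25 genes higher and 4 lower, and limma-voom called 0. In the number 2 libraries, where the spread was taken from 2 other clones with several heart-free libraries, Pcdh7 alone was called, a share of 0.00537% of 18614 genes for higher and 0% for lower. At an unadjusted p under 0.05, 609 genes were higher and 489 lower, and DESeq2 called 70 and 41.

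Pcdh7 encodes protocadherin 7, a cell surface adhesion protein of the cadherin superfamily, and lies on the plus strand of chromosome 5 at 57717967-58133230 (GRCm38). Its level was 34.5 CPM in yfp_6556c4 number 2 and 0.934 CPM in yfp_6556c3 number 2, a 34.8-fold difference after a prior count of 2, which the folds and pair differences of single genes include. In the number 1 libraries it was 48.5 CPM in yfp_6556c4 and 10.2 CPM in yfp_6556c3. The fitted difference in the number 2 libraries was 5.20 ± 0.29 (log2, SE), with an adjusted p of 0.0296 by edgeR's quasi-likelihood test, and this p assumes that the lone library of each clone varies like those of other clones. The call was lost when any of the 5 libraries that gave the spread was left out, with an adjusted p of 0.0613 without yfp_2838c3 replicate 4, 0.136 and 0.22 without its replicates 3 and 2, and 0.255 and 0.261 without yfp_2699c4 replicates 3 and 4, all by edgeR, and under limma-voom the adjusted p was 0.379. Pcdh7 went the other way in line yfp_6499, with 0.497 CPM in the high clone yfp_6499c4 and 91.2 CPM in the low clone yfp_6499c3. The other low clones ranged from 2.73 to 171.2 CPM and the other high clones from 0.446 to 27.0 CPM. The low clone yfp_6556c3 was thus below all 7 other low clones, and the high clone yfp_6556c4 above all 5 other high clones.

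A few genes of epithelial adhesion and junctions were higher in the high clone by at least 1 on the log2 scale in both pairs. These were 4 of 13 epithelial and 3 of 22 tight junction and desmosome genes, beside 148 of 11391 genes in all, 1.3%. Cldn3, among the 4, met the required average of 5 CPM only through its number 1 levels. In number 2 it was at 3.24 CPM in yfp_6556c4 and 0.125 CPM in yfp_6556c3. The lists share members, Cldn4 among them, so the counts are not separate, and none of these genes was called. Epcam had nearly the same difference in each pair. Epcam, which encodes an epithelial adhesion molecule (chromosome 17, 87635979-87651129, plus strand), stood at 116.2 CPM in yfp_6556c4 number 1, 97.8 CPM in yfp_6556c4 number 2, 14.3 CPM in yfp_6556c3 number 1 and 12.5 CPM in yfp_6556c3 number 2. The high clone stood above the low clone by 8.11-fold in the number 1 pair and 7.78-fold in the number 2 pair. It had the smallest p in the fit of 4 libraries, with a log2 difference of 2.99 ± 0.26 (SE), an unadjusted p of 0.00034 and an adjusted p of 1 by edgeR's quasi-likelihood test. DESeq2 gave an adjusted p of 5.28e-17 for it. The number 1 difference of 3.02 was also close to the 3.06 of the heart genes, and the part of those transcripts in it was not tested. The number 2 difference was as large in libraries with heart sums near 0.03 CPM.

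Among the claudins, which form the strands of tight junctions, Cldn4 (chromosome 5, 134945119-134946934, minus strand) stood at 42.9 CPM and 23.5 CPM in yfp_6556c4 numbers 1 and 2, and at 5.27 CPM and 1.77 CPM in yfp_6556c3. Cldn7 stood at 43.7 CPM and 60.6 CPM in yfp_6556c4, and at 15.3 CPM and 7.54 CPM in yfp_6556c3. Cldn3 differed in level between the pairs, at 89.9 CPM and 10.4 CPM in the number 1 libraries of yfp_6556c4 and yfp_6556c3, but only 3.24 CPM and 0.125 CPM in number 2. St14, the gene of the epithelial membrane protease matriptase, stood at 22.2 CPM and 19.3 CPM in yfp_6556c4 and at 3.18 CPM and 1.31 CPM in yfp_6556c3. Its inhibitor gene Spint1 was higher in number 2, at 33.8 CPM against 3.55 CPM, with 31.8 CPM against 20.4 CPM in number 1. None of these genes passed the adjusted threshold in either edgeR fit. Over the 4 libraries the levels of the clones did not overlap for Epcam, Cldn4, Cldn7, St14 and Spint1, and they overlapped for Cldn3. The share of all genes without overlap was not counted. Epcam, Cldn4, St14 and Spint1 were named for their differences in these same libraries, so this only describes their levels.

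Other genes of the epithelial and mesenchymal programs were nearly level in the number 2 pair. Cdh1, the E-cadherin gene, was at 798.4 CPM in yfp_6556c4 and 646.9 CPM in yfp_6556c3, Krt19, a ductal keratin gene, at 1592 CPM and 1209 CPM, Vim, the vimentin gene, at 3187 CPM and 2919 CPM, and the repressor gene Zeb1 at 69.0 CPM and 74.0 CPM. Of 12 measured epithelial genes in number 2, 3 were higher by at least 1 on the log2 scale and 0 lower, with a median of 0.34. Of 21 measured tight junction and desmosome genes, a list that shares Cldn4 with the epithelial one, 3 were higher and 0 lower, with a median of 0.27. The background was 4.39% higher and 2.26% lower among the 10647 genes at 5 CPM or more, with a median of 0.07. In the number 1 pair the background was 9.82% higher and 5.73% lower of 11714 genes, and there 10 of 23 junction genes were higher and 1 lower.

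Over all genes the differences in the number 1 pair had no linear relation to those in the number 2 pair, although large differences coincided in part. Over the 11391 genes that averaged 5 CPM or more in the 4 libraries, the differences of the 2 pairs had the same sign in 48.7% and a Pearson r across genes of -0.00023. Of the 921 genes higher by at least 1 in number 1 and the 504 in number 2, 148 were shared, which is 16.1% of the first and 29.4% of the second. Both shares exceed those over all 11391 genes, of which 504 and 921 were higher in numbers 2 and 1. Of the 671 and 598 genes lower, 71 were shared, 10.6% and 11.9%, which also exceed the shares over all genes, 598 and 671 of 11391. A gene could pass the average of 5 CPM through its number 1 levels alone. Of the 10647 genes that averaged 5 CPM or more in the number 2 pair itself, 467 were higher and 241 lower. Most of the 598 lower genes thus averaged under 5 CPM in number 2. The part of such low levels in these shares was not tested. Differences of opposite sign were found in 154 genes that were higher in number 1 and lower in number 2, and in 70 with the reverse. Genes with a large difference in either pair thus more often had a large difference in the other, in the same or the opposite direction. The 148 and 71 genes were 1.3% and 0.623% of those compared. Just inside the rule was Pcsk5, with a smaller difference of 1.001, and just outside was Itgax, at 0.998 in size.

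**Figure D2:**
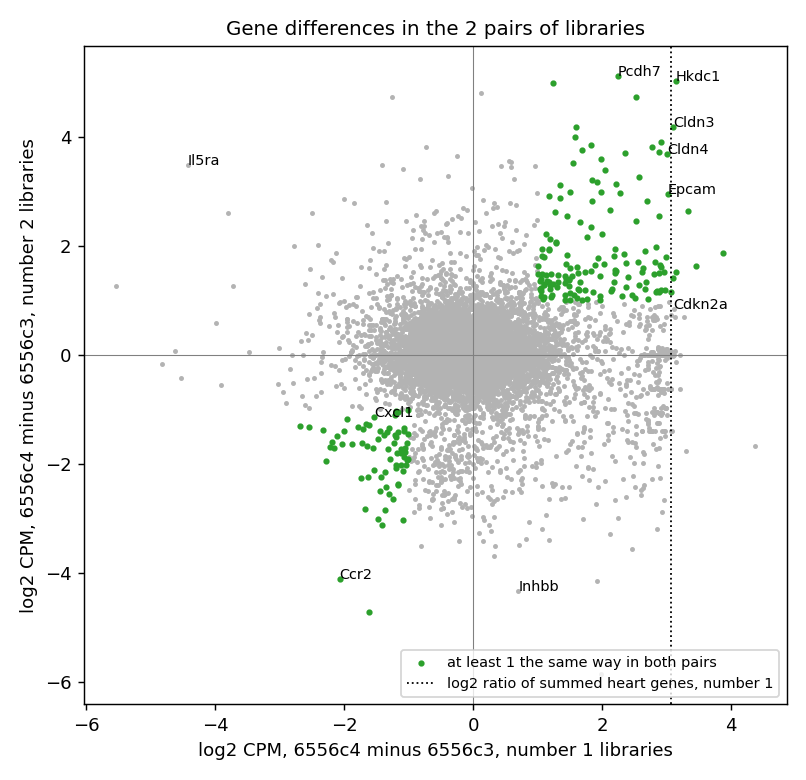
Difference between yfp_6556c4 and yfp_6556c3 in log2 CPM in the number 1 libraries (x axis) and the number 2 libraries (y axis) for 11391 genes, with genes that differ by at least 1 the same way in both pairs in green. A column of points stands near the dotted line at 3.06, the log2 ratio of the heart genes, and Epcam, Cldn3, Cldn4 and Hkdc1 lie beside it.

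Of the 148 genes higher in both pairs, 35 lay within 0.5 of the heart ratio in number 1, against 273 of all 921 higher there. In 42 of the 148, yfp_6556c3 number 1 stood above yfp_6556c4 number 2, so the levels of the clones overlapped. Genes in which yfp_6556c3 number 2 stood above yfp_6556c4 number 1 were not counted. Hkdc1, which encodes a hexokinase-like glucose kinase, had the largest smaller difference, at 36.7 CPM and 21.0 CPM in yfp_6556c4 numbers 1 and 2 and 4.09 CPM and 0.592 CPM in yfp_6556c3. Its number 2 value in yfp_6556c3 was below all 7 other low clones, whose lowest was 8.92 CPM. St8sia3, a sialyltransferase gene, stood at 6.77 CPM and 11.02 CPM in yfp_6556c4 and 1.0 CPM and 1.49 CPM in yfp_6556c3. Reg3g, a gene for an antimicrobial lectin of injured pancreas and gut, stood at 13.8 CPM and 4.39 CPM in yfp_6556c4 and 1.32 CPM and 0.654 CPM in yfp_6556c3.

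Genes lower in yfp_6556c4 in both pairs included genes of leukocytes, whose markers were unequal as given above. Ccr2, a chemokine receptor of monocytes, stood at 13.5 CPM and 56.9 CPM in number 1 of yfp_6556c4 and yfp_6556c3, and at 0.321 CPM and 6.42 CPM in number 2. Clec4e, Clec5a and Fcrls, receptor genes of myeloid cells, and Retnlg, a neutrophil gene, were among the 10 with the largest smaller difference. In number 2 Clec4e was only at 0.642 CPM in yfp_6556c4 and 2.15 CPM in yfp_6556c3, and Retnlg at 0.25 CPM and 0.934 CPM. Of the 71 genes, 8 were in the marker lists of other cell types. The part of other cells in these differences was not tested. Tc2n, a gene of a C2 domain protein, was at 5.42 CPM and 9.06 CPM in yfp_6556c4 and 20.1 CPM and 28.3 CPM in yfp_6556c3.

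**Figure D3:**
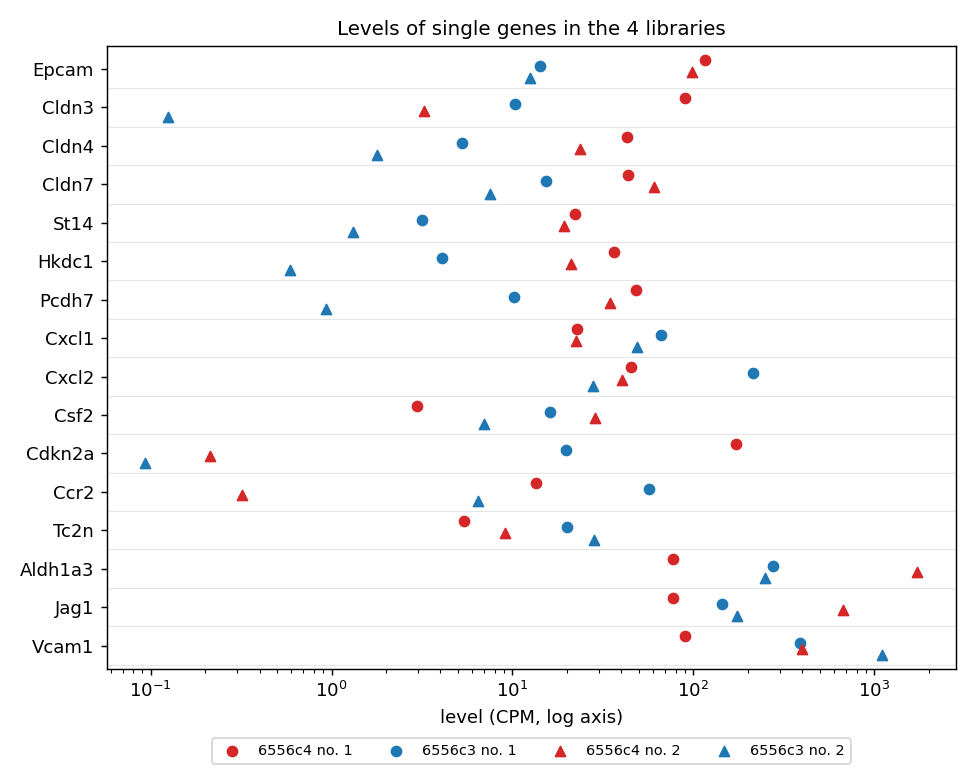
Levels of 16 genes (x axis, CPM, log scale) in the 4 libraries, with circles for number 1, triangles for number 2, red for yfp_6556c4 and blue for yfp_6556c3. Red points stand to the right of blue ones of the same shape for Epcam, Cldn4, Cldn7, St14, Hkdc1 and Pcdh7, while Cxcl2, Csf2, Aldh1a3 and Jag1 change order between circles and triangles.

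Of the chemokine and growth factor genes, Cxcl1, whose product attracts neutrophils and other myeloid cells through the receptor CXCR2, was the one with the smallest p. It lies on the plus strand of chromosome 5 at 90891241-90893115. Its level was 22.8 CPM and 22.4 CPM in yfp_6556c4 numbers 1 and 2, and 66.3 CPM and 49.1 CPM in yfp_6556c3. The fit of 4 libraries gave a log2 difference of -1.36 ± 0.27 (SE), with an unadjusted p of 0.00727 and an adjusted p of 1 by edgeR's quasi-likelihood test, against 0.0493 by DESeq2. The sum of the neutrophil markers was also lower in yfp_6556c4 in both pairs, at 5.46 CPM and 15.9 CPM in number 2, where 0 of these markers averaged 5 CPM. The macrophage and fibroblast sums were lower in yfp_6556c4 number 2 as well, while the T cell sum was not. A link between these markers and Cxcl1 was not tested. In line yfp_6499 the high clone had 0.38 CPM of Cxcl1 and the low clone 7.45 CPM. Both sister clones were above all 5 other high clones, the highest of which had 14.8 CPM, and yfp_6556c3 was above all 7 other low clones.

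Several other secreted factors changed order between the pairs. Cxcl2, another ligand of CXCR2, was at 45.2 CPM in yfp_6556c4 and 212.7 CPM in yfp_6556c3 in number 1, but at 40.3 CPM and 27.8 CPM in number 2. Csf2, the GM-CSF gene, was at 2.98 CPM and 16.1 CPM in number 1 and at 28.5 CPM and 6.98 CPM in number 2. Ptgs2, the gene of the prostaglandin-forming enzyme COX-2, was at 53.05 CPM and 120.4 CPM in number 1 and at 74.6 CPM and 38.7 CPM in number 2. Csf1, the macrophage growth factor gene, was lower in yfp_6556c4 in number 2, at 13.7 CPM against 31.4 CPM, and close in number 1, at 48.0 CPM against 53.4 CPM. Cxcl9 and Cxcl10, ligands of the chemokine receptor CXCR3 of T cells, were at 25.5 CPM and 10.2 CPM, and at 11.4 CPM and 11.4 CPM, in number 2 of yfp_6556c4 and yfp_6556c3. In number 1 both were lower in yfp_6556c4, Cxcl9 at 2.66 CPM against 6.78 CPM and Cxcl10 at 3.52 CPM against 8.84 CPM. Of 13 measured genes of the myeloid list, 3 were higher and 3 lower by at least 1 in number 2, against 0 and 8 of 14 in number 1. Myc, the growth regulator, was at 196.0 CPM and 149.1 CPM in number 2 and 136.0 CPM and 113.7 CPM in number 1.

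Among antigen presentation genes, H2-K1, a class I heavy chain gene whose counts may be shared with close relatives, was at 1134 CPM in yfp_6556c4 and 637.6 CPM in yfp_6556c3 in number 2, and at 289.3 CPM and 404.3 CPM in number 1. B2m, the class I light chain gene, was at 732.3 CPM and 402.0 CPM in number 2, and at 252.6 CPM and 412.4 CPM in number 1. The class I list of 13 genes had a median difference of 0.55 in number 2 and -0.28 in number 1, with 1 member higher by at least 1 and 0 lower in number 2. Of 23 measured interferon response genes, 2 were higher and 0 lower in number 2, with a median of 0.15, whereas 14 of 23 were lower in number 1, with a median of -1.27. Neither list had a member that was called. Cd274, the PD-L1 gene, was at 8.56 CPM and 8.66 CPM in number 2 and at 10.6 CPM and 40.3 CPM in number 1.

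Several lists of tumour cell genes had more members higher than lower in yfp_6556c4 in the number 2 pair, and none of the members was called. Of 21 glycolysis and hypoxia genes, 6 were higher by at least 1 and 0 lower, with a median of 0.68. In number 1 0 of the 21 were higher and 2 lower, with a median of -0.0019. Vegfa, a hypoxia-induced angiogenic factor gene, was at 884.8 CPM in yfp_6556c4 and 409 CPM in yfp_6556c3, with 363.7 CPM and 294.1 CPM in number 1. Of 22 MAPK output and AP-1 genes, 6 were higher and 0 lower in number 2, with a median of 0.55, while 7 were lower and 0 higher in number 1, with a median of -0.61. Jun, an AP-1 subunit gene, was at 686.4 CPM and 334.9 CPM in number 2 and at 147.8 CPM and 334.6 CPM in number 1. Of 9 gastrointestinal differentiation genes, 5 were higher and 0 lower in number 2, with a median of 1.03, while in number 1 0 of 10 were higher and 3 lower, with a median of -0.58. Cdh17, an intestinal cadherin gene, was at 1466 CPM and 309.1 CPM in number 2, and at 168.7 CPM and 501.6 CPM in number 1.

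Single genes of other pathways stood far apart in number 2. Aldh1a3, a retinoic acid synthesis gene, was at 1724 CPM in yfp_6556c4 and 250.4 CPM in yfp_6556c3, and at 76.9 CPM and 276.4 CPM in number 1. Jag1, a Notch ligand gene, was at 673.1 CPM and 174.7 CPM, and at 76.8 CPM and 143.3 CPM in number 1. In both genes yfp_6556c4 number 2 stood above and yfp_6556c4 number 1 below the 2 libraries of yfp_6556c3, which were closer to each other. Vcam1, an adhesion molecule for leukocytes, was lower in yfp_6556c4 in both pairs, at 397.1 CPM against 1112 CPM in number 2 and 90.1 CPM against 387.9 CPM in number 1. The genes Lama3 and Lamb3, which encode laminin chains of epithelial basement membrane, were chosen after their values were seen. In number 2 they stood at 129.6 CPM and 401.7 CPM in yfp_6556c4, and at 26.4 CPM and 89.2 CPM in yfp_6556c3. In number 1 both were lower in yfp_6556c4, at 47.1 CPM and 135.2 CPM against 80.4 CPM and 185.0 CPM. Scd1, a fatty acid desaturase gene chosen in the same way, was higher in yfp_6556c4 in both pairs, at 197.9 CPM and 138.9 CPM in numbers 1 and 2 against 69.6 CPM and 45.8 CPM in yfp_6556c3.

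**Figure D4:**
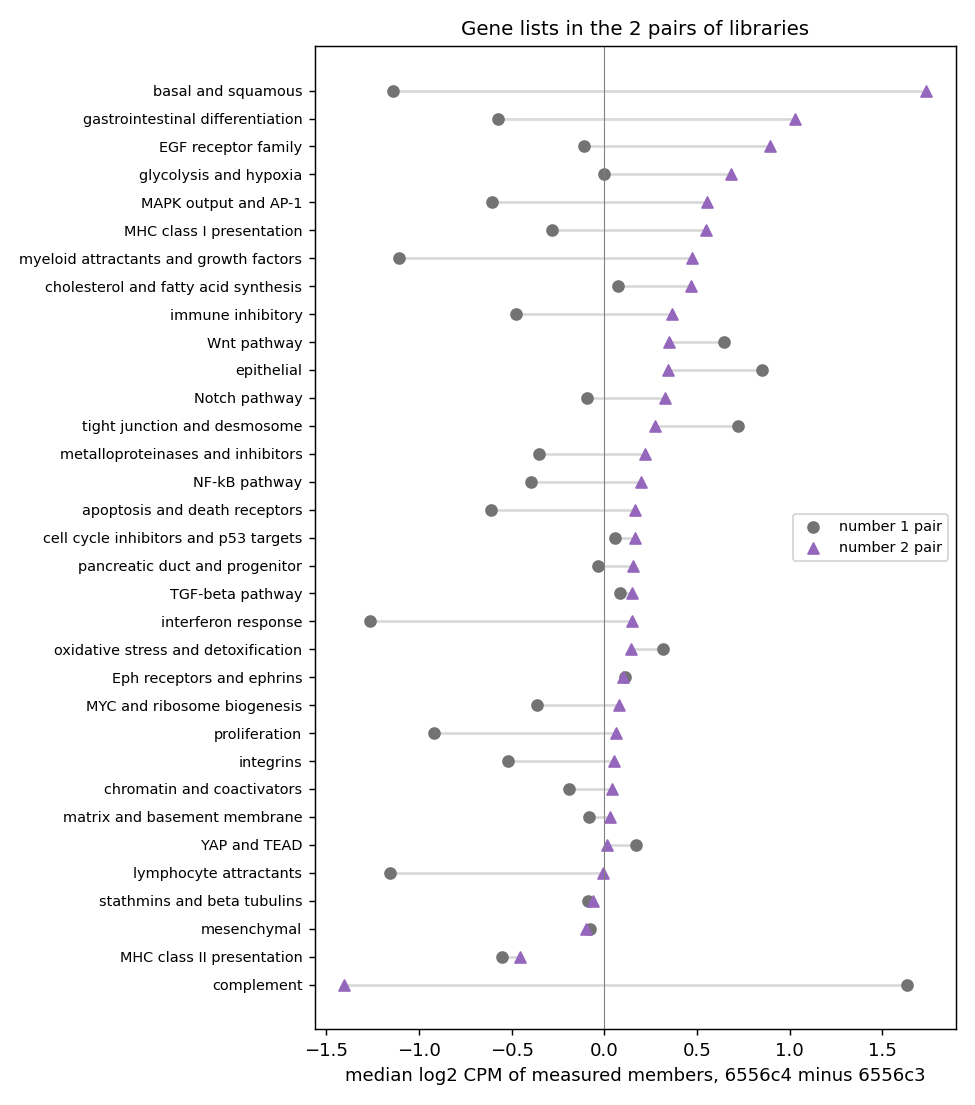
Median log2 difference between yfp_6556c4 and yfp_6556c3 (x axis) over the measured members of 33 lists of tumour cell genes, with circles for the number 1 pair and triangles for the number 2 pair. The median is above 0 in 28 lists in number 2 and in 10 lists in number 1, and the signs are opposite in 20. Against the medians of all genes, 0.07 in number 2 and -0.08 in number 1, these counts are 23, 13 and 16.

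Proliferation genes were level in number 2, with 0 of 24 higher and 0 lower by at least 1 and a median of 0.06, whereas 12 of 25 were lower in number 1, with a median of -0.92. Top2a, a topoisomerase gene of dividing cells, was at 220.3 CPM and 211.8 CPM in number 2 and at 107.8 CPM and 260 CPM in number 1. Complement genes were on opposite sides in the 2 pairs, with C3, the central complement component gene, at 118.6 CPM in yfp_6556c4 and 428.1 CPM in yfp_6556c3 in number 2, and at 3158 CPM and 711.8 CPM in number 1. The sum of the 10 liver markers had the same order as C3, at 15340 CPM in yfp_6556c4 and 2176 CPM in yfp_6556c3 in number 1 and at 48.7 CPM and 316.7 CPM in number 2, although 6 of these genes were near 0 in number 2. The fibroblast sum was lower in yfp_6556c4 in both pairs. The part of either cell type in the C3 difference was not tested.

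Below Pcdh7, the genes with the smallest p in number 2 missed the threshold. Hkdc1, given above, came next, with a log2 difference of 5.14 ± 0.46 (SE) and an adjusted p of 0.276 by edgeR's quasi-likelihood test. On the higher side, Il5ra, an interleukin 5 receptor gene, was at 36.0 CPM in yfp_6556c4 and 3.18 CPM in yfp_6556c3, but at 1.31 CPM and 29.1 CPM in number 1, the reverse order. Magohb, an exon junction complex gene, was at 28.5 CPM and 3.55 CPM in number 2 and at 9.57 CPM and 4.80 CPM in number 1. On the lower side, Igf2r, the gene of the receptor that takes up IGF2 and lysosomal enzymes, was at 35.9 CPM and 189.9 CPM in number 2, and at 155.3 CPM and 128.2 CPM in number 1. Its yfp_6556c4 number 2 level was below all 5 other high and all 7 other low clones, whose lowest was 63.8 CPM. Auts2, a gene of a transcription regulator, was at 4.39 CPM and 49.3 CPM in number 2 and at 33.4 CPM and 20.5 CPM in number 1. Again yfp_6556c4 number 2 was below these 5 other high and 7 other low clones. Inhbb, the gene of the activin B subunit, was at 0.677 CPM and 14.6 CPM in number 2 and 29.8 CPM and 18.3 CPM in number 1. The adjusted p of Il5ra, Magohb, Igf2r, Auts2 and Inhbb by edgeR's quasi-likelihood test ran from 0.431 to 0.475.

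**Figure D5:**
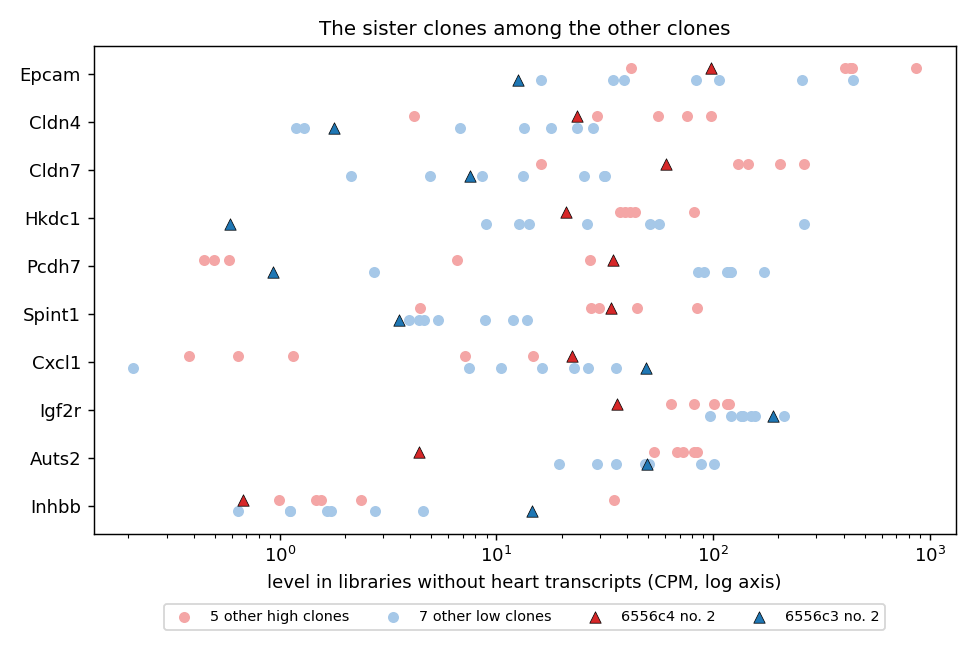
Levels in libraries without heart transcripts (x axis, CPM, log scale) of 10 genes in the sister clones (triangles) and in 5 other high clones (pale red) and 7 other low clones (pale blue), as means over such libraries of a clone. yfp_6556c4 stands left of all the other high and low clones shown for Igf2r and Auts2, and yfp_6556c3 stands left of them for Epcam, Hkdc1 and Spint1.

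Line yfp_6499 is the other line with a high and a low clone, and the difference between high and low was compared between the lines in the heart-free libraries. By edgeR's quasi-likelihood test 5 of 18614 genes, 0.0269%, differed between the lines. Apart from Pcdh7 these were Il1r1 and Slco2a1, for which the difference in line yfp_6556 was the higher one, and Twist1 and Fgfr4, for which it was the lower one. Il1r1, the interleukin 1 receptor gene, was at 81.1 CPM and 101.4 CPM in yfp_6556c4 and yfp_6556c3, against 0.906 CPM and 75.6 CPM in yfp_6499c4 and yfp_6499c3. Slco2a1, a prostaglandin transporter gene, was at 99.7 CPM and 78.8 CPM, against 0.906 CPM and 86.1 CPM. Twist1, a mesenchymal transcription factor gene, was at 0.57 CPM and 1.09 CPM in the sister clones, against 68.5 CPM and 0.573 CPM. Fgfr4, a fibroblast growth factor receptor gene, was at 45.8 CPM and 35.6 CPM, against 51.6 CPM and 0.125 CPM. The calls of these 4 genes were lost under limma-voom and without replicate 3 or 4 of yfp_2699c4 or replicate 2 of yfp_2838c3, and Slco2a1 and Twist1 also without replicate 3 of yfp_2838c3, while Pcdh7 stayed called in each. In these 4 genes the sister clones of line yfp_6556 were close to each other and the clones of line yfp_6499 far apart. Epcam differed by 2.96 ± 1.12 (log2, SE) in line yfp_6556 and 3.49 ± 1.13 in line yfp_6499. The difference between the lines was -0.53 ± 1.47 for Epcam and was not called. With so large an SE it does not show that the lines are equal. For Cldn4 the differences were 3.72 ± 1.19 and 3.04 ± 1.12, and for Cldn7 3.0 ± 0.86 and 2.04 ± 0.82. For Cldn3 they were further apart, at 4.66 ± 0.72 and 11.8 ± 0.87, with only 0.125 CPM in yfp_6556c3 and 0.0249 CPM in yfp_6499c3. The yfp_6556c3 value rested on 4 counts, and Cldn3 was not among the 5 genes called between the lines. The clones of line yfp_6499 were at 436.9 CPM and 38.8 CPM of Epcam, both above their counterparts of line yfp_6556.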

How the data were processed

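The data were whole-number raw counts that the authors deposited, for 39017 genes and 39 libraries. STAR, featureCounts and mm10 are named in the submitters' processing notes. Which versions, annotation and strand setting were used is not stated in the labels, so overlapping, antisense and near-identical genes are uncertain. Totals of the 39 libraries lay between 7638130 and 103794674 counts. Where a symbol was repeated (214 rows), the row with most counts was used. GENCODE M21 (GRCm38) gave coordinates for 37693 identifiers.

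After filterByExpr and TMM scaling, edgeR 4.0.16 (R 4.3.3) gave quasi-likelihood tests at a Benjamini-Hochberg adjusted p of 0.05. The first fit compared the clones over their 4 libraries. The second held 19 libraries, of 16 clones with a class, with a heart sum under 10 CPM, and gave the number 2 comparison and the line contrast. It took its spread from 5 libraries of 2 clones. The difference in a single pair of libraries is that of log2 CPM with a prior count of 2, and has no test. Levels share the TMM scale of these 19 libraries and the 2 number 1 libraries.

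Named genes were, in each direction and fit, up to 10 called genes of at least 5 CPM with the smallest p, or 5 where fewer than 5 were called, and the 10 with the largest smaller difference over both pairs, with candidates and up to 4 members of each of 47 lists. Gm, Riken, Mir, antisense and pseudogene symbols were passed over. Some named genes are not reported here. The clones, lists, candidates and tests were chosen with earlier results of these data known. DESeq2 1.42.0 and limma 3.58.1 were alternatives. On simulated data with a dispersion of 0.05, the 4-library fit recovered 95% of genes changed by log2 2 over 16196 genes, and the number 2 fit 88% over 17352 genes. Of 199 calls in each, 4 and 11 were false. The simulated libraries held no difference between numbers 1 and 2 and no other difference between clones. These shares therefore check the code and do not tell how many differences the fits could find in the real libraries.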

Additional observations from a re-analysis of the deposited data

Results flagged for a closer look

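The difference between the high and the low clone was not the same in lines yfp_6556 and yfp_6499 for 5 genes, by edgeR's quasi-likelihood test of the difference between the lines in libraries without heart transcripts. For Pcdh7 the log2 contrast was 12.7 ± 0.43 (SE, adjusted p = 0.00153), from 5.20 in line yfp_6556 and -7.51 in line yfp_6499. Il1r1 differed by 6.05 ± 0.38 (adjusted p = 0.0165), from -0.32 and -6.38. For Slco2a1 it was 6.90 ± 0.44 (adjusted p = 0.0165), from 0.34 and -6.56. Twist1 gave -7.82 ± 0.50 (adjusted p = 0.0165), from -0.93 and 6.89, and Fgfr4 gave -8.29 ± 0.54 (adjusted p = 0.0165), from 0.37 and 8.66. Each clone entered with 1 library. Pcdh7 was the gene of the 5 that was also called within line yfp_6556.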

How the results depend on the processing

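The 4-library test gave 0 calls in each direction under RLE scaling, without the filter, with limma-voom, with glmTreat, over all clones with a class, without the heart, liver and skeletal muscle lists, and without any single library (lowest and highest 0 in both directions). DESeq2 called 25 higher and 4 lower, and a heart term over all clones gave 7 higher and 0 lower, among them Myh6 and Myl2. With the replicate block it called 0 genes, with a smallest adjusted p of 0.129 and 1041 genes at an unadjusted p under 0.05, against 247 without the block. Number 1 libraries of the clones deviated together, at r = 0.854 across genes, but with 2 pairs the numbers are not shown to mark a shared origin.

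The number 2 test called Pcdh7 under RLE, glmTreat, the low and high classes alone, and without the marker lists. It called 2 higher without the filter, 0 with limma-voom, 70 higher and 41 lower with DESeq2, and 0 higher and 0 lower without any single library of yfp_2699c4 or yfp_2838c3. The same fit on libraries with heart transcripts, with number 1 of the pair, called 495 higher and 54 lower, and there Il5ra was at -4.48, Auts2 at 0.70, Igf2r at 0.27, Epdr1 at 0.061, Gyg at 0.054 and Inhbb at 0.70 (log2), opposite to number 2. The cause was not tested.

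The line contrast called 14 higher and 17 lower without the filter, 211 and 159 with DESeq2, 1 and 0 with limma-voom, and 1 to 4 higher and 0 to 6 lower without single libraries. Genes higher and lower in both pairs numbered 266 and 147 at 1 CPM, 19 and 1 at log2 2, and 147 and 63 without the marker lists, an alternative added after seeing the data. RLE moved the median difference from -0.0954 to -0.0401 in number 1 and from 0.0553 to 0.0275 in number 2. Of 350 gene values under alternatives, 290 kept direction and side of the threshold, 24 lost a call, 30 gained 1 and 6 changed sign. Most of the 350 were of genes not called in the main fit, which had no call to lose. The 24 lost calls were those of Pcdh7 in the number 2 test and of Il1r1, Slco2a1, Twist1 and Fgfr4 in the line contrast.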

Other observations

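Clone yfp_7062c3 has no class and its library entered no comparison. Its r with yfp_6556c4 number 2 was 0.9767 and with yfp_6556c3 number 2 was 0.9471. In the number 1 libraries the Wnt ligand genes Wnt4 and Wnt7a stood at 24.9 CPM and 27.7 CPM in yfp_6556c4 and at 5.78 CPM and 6.53 CPM in yfp_6556c3, whereas in number 2 they stood at 4.10 CPM and 3.42 CPM against 9.78 CPM and 2.77 CPM. The YAP target genes Ctgf and Ankrd1 stood at 664.9 CPM and 561.3 CPM in yfp_6556c4 number 1 against 243.5 CPM and 166.1 CPM in yfp_6556c3 number 1, and at 128.7 CPM and 126.7 CPM against 156.1 CPM and 137.6 CPM in number 2. Claudin 18 (Cldn18), a gastric tight junction gene, was at 37.6 CPM in yfp_6556c4 number 1 and between 222.6 CPM and 328 CPM in the other 3 libraries. Sox17, an endoderm transcription factor gene, was at 26.8 CPM in yfp_6556c4 number 2 and at 0.903 CPM to 4.33 CPM in the others. All of these genes except Ctgf and Ankrd1 were chosen after their values were seen.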
